A study of Caenorhabditis elegans with 41 samples.

Results

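The 10 genes described here encode histone methyltransferases and methyl-histone binding proteins of Caenorhabditis elegans that are known for keeping the X chromosome silent in germ cells or for marking chromatin in the germline. They were given as a list of gene identifiers, and all 10 were found among the 20390 genes listed for each of the 23 mRNA-seq libraries. The libraries were made from whole worms of 5 strains and fall into 8 groups. SP117 carries mnDp10, a stretch of the X chromosome attached to chromosome I, together with unc-3(e151), and was measured as 2 libraries of embryos, 4 of L2-L3 larvae and 3 of young adults. BC4289 carries sDp10, a stretch of chromosome IV attached to the X chromosome, and was measured as 2 libraries of L2-L3 larvae and 3 of young adults. TY1916 carries yDp11, a shorter stretch of X attached to chromosome IV, with lon-2(e678) and unc-9(e101), and has further gains on chromosomes IV and V. VC100 carries the X deletion gkDf2 and unc-112(r367). TY1916 and VC100 were each measured in embryos (3 libraries). OP37 is a line with many integrated copies of a fosmid that holds pha-4 tagged with GFP (3 libraries, labelled embryos). No wild-type library was analysed here, so strains are compared with each other, with SP117, BC4289 or VC100 as the reference. Each strain is a single line. Embryos came from bleached gravid hermaphrodites and were of mixed age. Per the labels, L2-L3 larvae were grown from L1 larvae that had hatched without food.

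In the C. elegans germline, MES-2, MES-3 and MES-6 form a complex like Polycomb repressive complex 2 that methylates histone H3 at lysine 27, a mark of silent chromatin that is rich on the X chromosome of germ cells. MES-4 places methylation of lysine 36 on genes that the germline uses, nearly all of them autosomal, and MET-1 is a second lysine 36 methyltransferase that acts with transcription. MET-2 and SET-25 methylate lysine 9, HPL-1 and HPL-2 are proteins of the heterochromatin protein 1 family that read such marks, and MRG-1 is a chromodomain protein that binds chromatin methylated at lysine 36. The mes genes take their name from maternal-effect sterility: a mother without the product has offspring whose germ cells die.

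Of the 10 genes, 9 are autosomal and 1 lies on the X chromosome. In WS220 coordinates, mes-2 (R06A4.7) lies on chromosome II from 14383899 to 14388414, mes-3 (F54C1.3) on chromosome I from 4996839 to 5002351, mes-6 (C09G4.5) on chromosome IV from 8511270 to 8514709 and mes-4 (Y2H9A.1) on chromosome V from 13433039 to 13437533. The gene met-1 (C43E11.3) lies on chromosome I from 4254380 to 4264692. Chromosome III holds met-2 (R05D3.11) from 8375225 to 8380777, set-25 (Y43F4B.3) from 13283790 to 13292984, hpl-2 (K01G5.2) from 10752163 to 10755424 and mrg-1 (Y37D8A.9) from 12871036 to 12874554. Only hpl-1 (K08H2.6) lies on X, from 13245320 to 13246975. Values of mes-6 and set-25 may be less certain than the others where annotated genes that overlap them lie on the same strand. The gene cks-1 shares 796 bases with mes-6 and reached 919 FPKM, and C09G4.4 shares 345. The genes unc-64 and F56A8.8 share 474 and 982 bases with set-25. Another 17 genes lie within 1000 bases of a member without overlap. Fragments were assigned with a strand-specific setting, and the strands of the overlapping genes were not analysed here. No sequence of these genes was analysed here.

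Levels are given in FPKM, fragments scaled to transcript length and to the mapped fragments of the library, so they can be compared between genes. The depth of a library, read from what a single fragment adds to the FPKM of low genes, ran between 11.7% (SP117 L2-L3 replicate 2) and 100% of the deepest library. The FPKM of a library summed to between 1280000 and 1550000 in L2-L3 larvae of SP117 and BC4289, between 1030000 and 1160000 in young adults, and between 890000 and 1270000 in the other libraries, so the scale is not the same at every stage. VC100 replicate 1 (Spearman rho 0.945 and 0.948 with the other VC100 libraries, which reached 0.976 with each other) and OP37 replicate 3 stood apart from their groups, as did SP117 L2-L3 replicate 2 to a lesser extent (rho 0.941 to 0.947 with its group, whose other pairs reached 0.965). The OP37 libraries are labelled embryos, while the names of their deposited data say L3, so their stage is in doubt. They correlated with rho 0.923 to 0.954 with L2-L3 larvae and 0.718 to 0.827 with the embryos of the other strains, so they are set beside larvae here. Summed oocyte markers set the labelled stages of the other strains apart. The summed FPKM of 5 oocyte markers was 1175 to 1563 in young adults and 110.3 to 568 in the embryos of SP117, TY1916 and VC100. It was 7.24 to 10.6 in L2-L3 larvae and 3.77 to 10.6 in OP37. Single markers did not all do so: oma-1 averaged 180.4 FPKM in SP117 embryos and 196.0 FPKM in SP117 young adults.

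**Figure D1:**
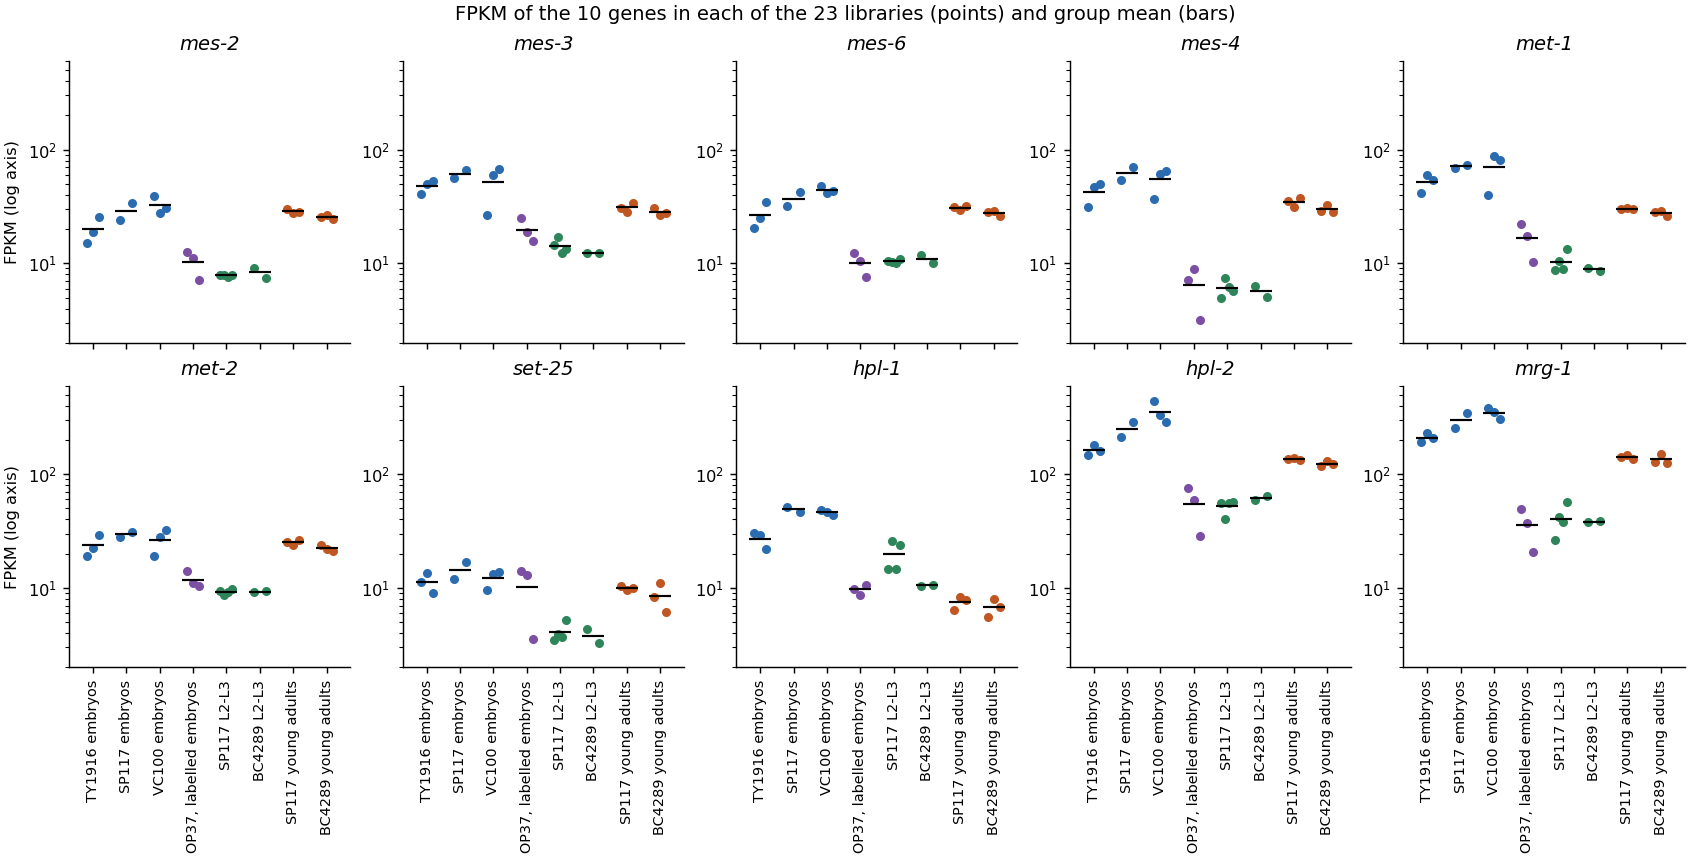
FPKM of each of the 10 genes (log axis) in the 23 libraries, by strain and stage. Points are libraries and bars are group means. In 9 genes the larval groups (green) lie below embryos (blue) and young adults (orange), while hpl-1 is lowest in young adults (5.60 to 8.31 FPKM).

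In young adults, mrg-1 and hpl-2 were the most abundant of the 10 messages. In SP117 young adults mrg-1 averaged 141.5 ± 6.46 FPKM and hpl-2 136.3 ± 3.63 FPKM (SD, n = 3), and their ranges overlapped. The next 5 genes formed a narrow band: mes-4 averaged 34.8 ± 3.09, mes-3 31.0 ± 2.6, mes-6 30.9 ± 1.22, met-1 30.1 ± 0.224 and mes-2 28.8 ± 1.24 FPKM, and each overlapped its neighbour in that order. Below the band and apart from it lay met-2 at 25.2 ± 1.45, set-25 at 10.0 ± 0.361 and hpl-1 at 7.48 ± 1.01 FPKM. BC4289 young adults had the same pair at the top (mrg-1 135.2 ± 13.8 and hpl-2 123.3 ± 6.11 FPKM) and the same pair at the bottom (set-25 8.54 ± 2.45 and hpl-1 6.80 ± 1.23 FPKM, SD, n = 3), there with overlapping ranges. Within each library, mes-3 stood at 96.6 to 106% of mes-6 in SP117 young adults, against 157 and 176% in SP117 embryos.

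The comparison of young adults with L2-L3 larvae follows the stages between which the germline grows and oocytes form. Higher in young adults were 9 of the 10 genes, in SP117 and again in BC4289, and hpl-1 was lower in both. Of all genes tested, 36.7% were higher and 40.1% lower in SP117 young adults, and 36.7% were higher and 37.3% lower in BC4289 young adults. For all 9 genes and in both strains, every young adult library lay above every larval library of the strain, and for hpl-1 every young adult library lay below. How many of all genes tested had groups apart in this way was not counted. The median log2 ratio of the 10 genes was 1.49 in SP117 and 1.29 in BC4289, where the median of all genes tested (13593 and 13722) was -0.15 and -0.14. Ratios are of FPKM + 0.1, and tests are limma with Benjamini-Hochberg adjustment over all genes tested, two-sided. In whole worms, more germ cells and more RNA per germ cell cannot be told apart: the sum of 8 germ cell markers was 1306 to 1327 FPKM in SP117 young adults, against 91.8 to 122 FPKM in SP117 L2-L3 larvae, and 1166 to 1363 FPKM in BC4289 young adults, against 109.7 and 147 FPKM in BC4289 larvae. The part of germ cell number in these ratios was not tested.

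Among the members of the lysine 27 complex, mes-2, the methyltransferase itself, had 30.1, 27.8 and 28.4 FPKM in SP117 young adults, against 7.92, 7.96, 7.54 and 7.96 FPKM in SP117 L2-L3 larvae. The groups were far apart and each was tight, a log2 ratio of 1.86 ± 0.12 (SE, 3.63-fold, limma adjusted p = 7.31e-06). In BC4289 it had 25.5, 26.7 and 24.7 FPKM in young adults, against 9.18 and 7.46 FPKM in larvae (log2 ratio 1.62 ± 0.14, limma adjusted p = 0.000560). The WD40 protein gene mes-6 rose 2.94-fold in SP117 (log2 1.55 ± 0.11) and 2.52-fold in BC4289 (log2 1.34 ± 0.13). The least change in the complex was that of mes-3, the gene of its remaining subunit. It had 30.9, 28.5 and 33.7 FPKM in SP117 young adults, against 14.4, 16.9, 12.4 and 13.4 FPKM in larvae, a log2 ratio of 1.12 ± 0.15 (2.17-fold) that compares with 1.2 ± 0.12 (2.29-fold) in BC4289. The level of mes-2 as a percentage of mes-6 was 89.4 to 95.9% in SP117 young adults, against 73.7 to 77.0% in SP117 larvae, and 90 to 94.7% in BC4289 young adults, against 73.4 and 78.4% in BC4289 larvae.

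The lysine 36 methyltransferase gene mes-4 had the highest ratio of the 10 genes in both strains. It had 35.4, 31.5 and 37.6 FPKM in SP117 young adults, against 4.98, 7.39, 6.23 and 5.72 FPKM in SP117 larvae, a log2 ratio of 2.51 ± 0.17 (5.69-fold, limma adjusted p = 9.53e-06). In BC4289 it had 29.0, 32.6 and 28.2 FPKM in young adults, against 6.30 and 5.1 FPKM in larvae, a log2 ratio of 2.38 ± 0.15 (5.2-fold, limma adjusted p = 0.000255). The other lysine 36 enzyme, met-1, rose 2.93-fold in SP117 and 3.13-fold in BC4289. The chromodomain gene mrg-1 had 141.9, 147.7 and 134.8 FPKM in SP117 young adults, against 26.5, 42.1, 38.1 and 56.5 FPKM in larvae, the widest larval spread of the 9 genes that rose in terms of FPKM. Its ratio was 3.59-fold in SP117 (log2 1.84 ± 0.23) and 3.51-fold in BC4289 (log2 1.81 ± 0.11).

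Both lysine 9 methyltransferase genes rose in both strains. The SETDB1-like gene met-2 had 25.3, 23.6 and 26.5 FPKM in SP117 young adults, against 9.38, 8.60, 9.23 and 9.80 FPKM in SP117 larvae (2.70-fold), and the ratio in BC4289 was 2.38-fold. The gene for its partner in lysine 9 methylation, set-25, was the least abundant of the 10 in larvae, with 10.4, 9.64 and 10.1 FPKM in SP117 young adults, against 3.46, 3.93, 3.73 and 5.19 FPKM in larvae, a log2 ratio of 1.29 ± 0.19 (2.45-fold). In BC4289 it had 8.41, 11 and 6.16 FPKM in young adults, against 4.37 and 3.27 FPKM in larvae, where the log2 ratio was 1.12 ± 0.31 with a limma adjusted p of 0.0214. That call was lost without larval replicate 1, larval replicate 2 or young adult replicate 1 (limma adjusted p = 0.0536, 0.126 and 0.0592). With 1 larval library left, that library is assumed to vary like the adult ones.

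**Figure D2:**
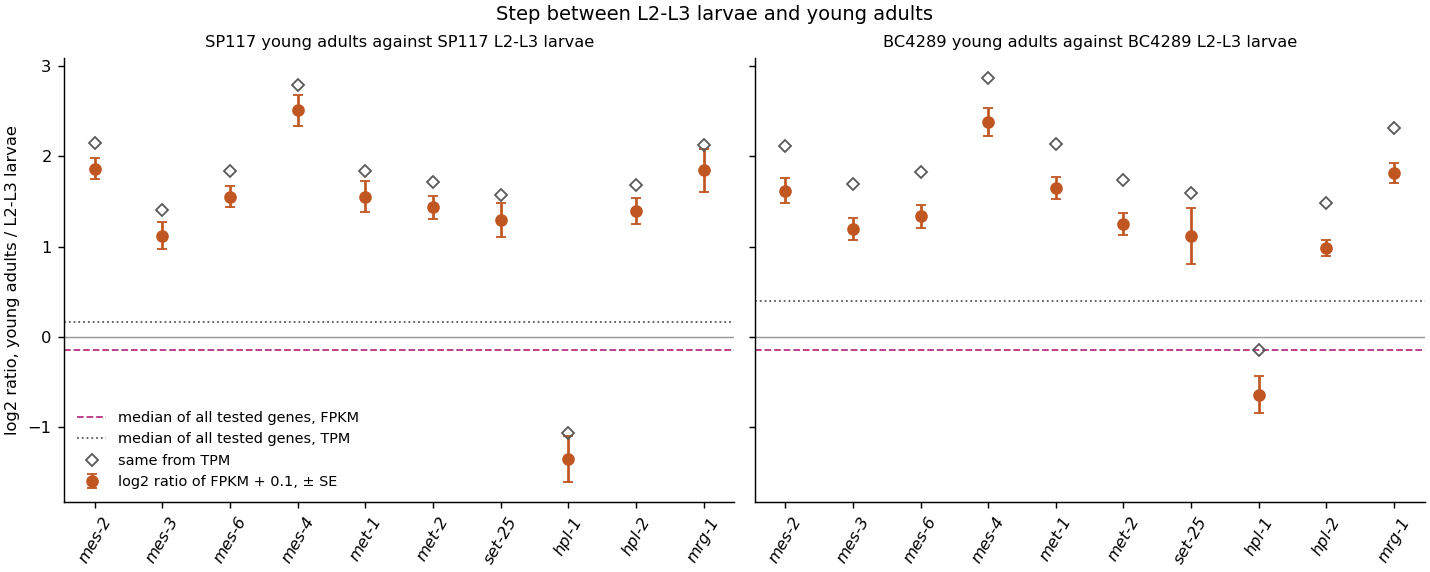
Log2 ratio of young adults to L2-L3 larvae for each of the 10 genes in SP117 (left) and BC4289 (right). Filled points are from FPKM with their standard errors, open diamonds are from TPM, and the lines mark the median of all tested genes on each scale. All genes but hpl-1 lie between 0.98 and 2.51 on the FPKM scale.

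The pair of heterochromatin protein 1 genes moved in opposite directions. In SP117, hpl-2 had 137.3, 139.3 and 132.3 FPKM in young adults, against 55.8, 40.5, 56.0 and 56.8 FPKM in L2-L3 larvae, a log2 ratio of 1.39 ± 0.14 (2.63-fold, limma adjusted p = 6.49e-05). In the same libraries hpl-1 had 6.36, 8.31 and 7.78 FPKM in young adults, against 14.8, 25.9, 14.6 and 23.8 FPKM in larvae. Its log2 ratio was -1.35 ± 0.25 (2.55-fold lower in young adults, limma adjusted p = 0.00161). In BC4289, hpl-2 had 117.9, 129.9 and 121.9 FPKM in young adults, against 59.9 and 64.6 FPKM in larvae (log2 ratio 0.98 ± 0.093). There hpl-1 had 5.60, 8.05 and 6.74 FPKM in young adults, against 10.5 FPKM in both larval libraries, a log2 ratio of -0.64 ± 0.20 with a limma adjusted p of 0.0349.

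The fall of hpl-1 in BC4289 depended on the scale. From TPM, which takes out the larger FPKM sum of larvae, the log2 ratio was -0.15 (limma adjusted p = 0.550), while the median of all genes moved to 0.40. Relative to that median hpl-1 stood at -0.50 from FPKM and -0.55 from TPM. In SP117 hpl-1 was at -1.2 relative to the median from FPKM and -1.22 from TPM, and the call held on both scales. The BC4289 call was also lost without larval replicate 1, larval replicate 2, young adult replicate 1 or young adult replicate 3 (limma adjusted p = 0.138, 0.145, 0.0735 and 0.0764), and kept without young adult replicate 2 (0.0156). A ratio taken within each library does not depend on the scale. The level of hpl-1 was 4.63 to 5.96% of that of hpl-2 in SP117 young adults, against 26 to 63.8% in SP117 larvae, and 4.75 to 6.20% in BC4289 young adults, against 16.3 and 17.5% in BC4289 larvae.

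**Figure D3:**
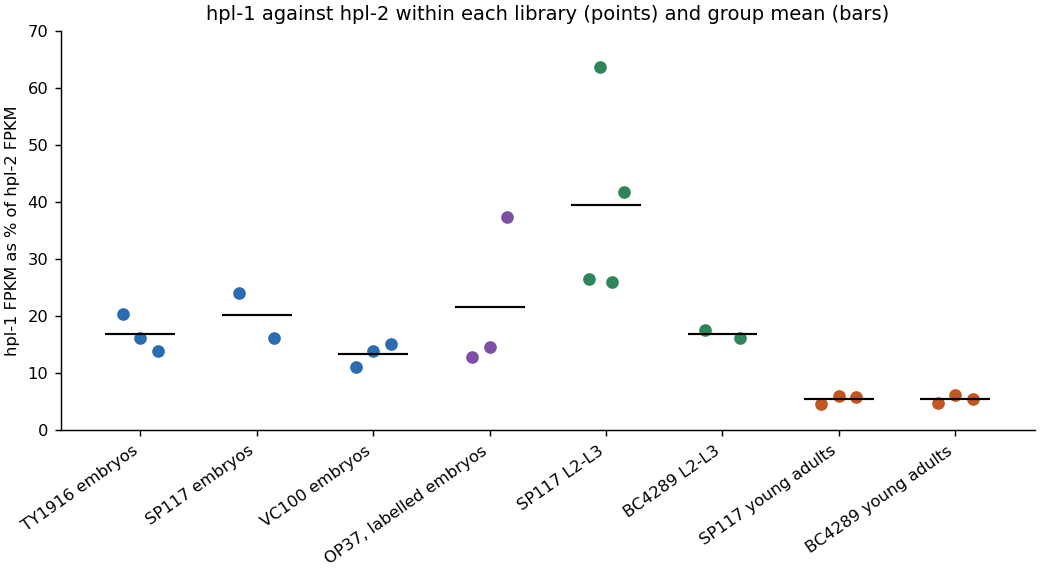
FPKM of hpl-1 as a percentage of FPKM of hpl-2 within each library (points), with group means (bars). Young adults of both strains lie between 4.63 and 6.20%, below every library of the other groups, whose lowest value is 11.1%.

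The 1 member that fell is the 1 that lies on the X chromosome. Of the 2035 other X genes tested in SP117, the median log2 ratio of young adults to larvae was -1.31, and 48.7% of them had a lower ratio than hpl-1. Among the 1971 other X genes tested in BC4289 the median was -1.12, and 64.9% had a lower ratio than hpl-1. In SP117 the ratio of hpl-1 therefore lay in the middle of its chromosome. The 50 tested genes nearest to hpl-1 had a median of -1.08 in SP117 and -0.70 in BC4289. On the autosomes the members lay above their surroundings: in SP117 all 9 exceeded the median of the 50 tested genes nearest to them and the median of their chromosome. Between 63.8% (mes-3) and 89.9% (mes-4) of the other tested genes of their chromosome had a lower ratio. The gene furthest from its surroundings was mes-4, at 2.51 where the 50 nearest genes had a median of -0.88, while mes-6 was closest, at 1.55 with a median of 1.24 around it. In BC4289, mes-6 was at 1.335 and its 50 nearest genes had a median of 1.332.

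The stage step was then compared between the strains with an interaction term over 13740 genes. None of the 10 members passed the test in limma (adjusted p between 0.710 and 0.989), and none had an unadjusted p under 0.05. Of all genes tested, 0.0291% passed, and 971 had an unadjusted p under 0.05. The 2 largest differences were those of the heterochromatin protein 1 genes: the ratio of hpl-1 was 0.71 ± 0.36 lower in SP117 than in BC4289 (log2 difference -0.71, adjusted p = 0.733 in limma), and that of hpl-2 was 0.41 ± 0.19 higher (adjusted p = 0.710 in limma). The other 8 differences were between -0.09 and 0.24.

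The same contrast was read for 38 other genes of histone methylation, of which 34 were tested in both strains. Of these, 26 were higher and 4 lower in young adults of both strains, and the remaining 4 passed in neither. Their median log2 ratio was 1.29 in SP117 and 1.11 in BC4289. Over all genes tested the median was -0.15 and -0.14. In SP117 36.7% of all genes tested were higher and 40.1% lower, and in BC4289 36.7% and 37.3%. The share of all genes that passed in both strains was not counted. In SP117, the writers divided into 14 higher and 2 lower of 19, the erasers into 7 and 1 of 9, and the readers into 5 and 1 of 6. The largest rises in SP117 were those of set-32, a putative lysine 9 methyltransferase gene (log2 2.36 ± 0.22), and of arle-14 (2.34 ± 0.17), whose product works with MET-2. The largest falls were those of set-30, a SET domain gene (-2.20 ± 0.14), and jmjd-3.1, a lysine 27 demethylase gene (-2.04 ± 0.21). Their limma adjusted p was 4.00e-05, 1.27e-05, 7.46e-06 and 6.32e-05, in that order.

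All 10 genes were lower in SP117 L2-L3 larvae than in SP117 embryos, where 40.2% of the 13532 genes tested were lower. Every larval library lay below both embryo libraries for each of the 10. The share of all genes tested with groups apart like this was not counted. Log2 ratios were between -3.33 and -1.36 with a median of -1.97, and the median of all genes was -0.32 (from TPM between -3.86 and -1.90, with a median of all genes of -0.90). Again mes-4 moved most: it had 4.98, 7.39, 6.23 and 5.72 FPKM in larvae, against 54.5 and 69.7 FPKM in embryos, a log2 ratio of -3.33 ± 0.25 (10.1-fold lower, limma adjusted p = 3.38e-05). Next came mrg-1 (-2.90 ± 0.31) and met-1 (-2.79 ± 0.24). The smallest change was that of hpl-1, which had 14.8, 25.9, 14.6 and 23.8 FPKM in larvae, against 51.8 and 46.8 FPKM in embryos (-1.36 ± 0.30, limma adjusted p = 0.00432). Under quantile normalization that ratio was -0.72 with a limma adjusted p of 0.0638, and the other 9 calls remained. Marker levels moved as well. The oocyte markers summed to 7.24 to 8.39 FPKM in SP117 larvae, against 278 and 432 FPKM in SP117 embryos. The germ cell markers summed to 91.8 to 122 FPKM, against 328.5 and 454 FPKM, and the 7 somatic markers to 2041 to 2299 FPKM, against 330 and 602 FPKM. Not every marker followed its sum. Among germ cell markers, gld-1 averaged 11.5 FPKM in larvae, against 155.3 FPKM in embryos, but glh-1 averaged 41.4, against 13.1 FPKM. Among somatic markers, unc-54 averaged 1607 FPKM in larvae, against 142.6 FPKM in embryos. By contrast, elt-2 averaged 17.15, against 25.04 FPKM, with overlapping ranges. The part of these markers in the ratios was not tested. The list of 38 other genes behaved in the same way, with 35 of 36 tested lower and none higher.

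Between SP117 young adults and SP117 embryos the members separated. Lower in young adults were 6 of the 10, where 40.6% of the 13586 genes tested were lower. Besides hpl-1 (log2 ratio -2.71 ± 0.19, 6.55-fold lower, limma adjusted p = 5.49e-05), these were met-1 (-1.23 ± 0.12), mrg-1 (-1.06 ± 0.15), mes-3 (-0.98 ± 0.14), hpl-2 (-0.87 ± 0.15) and mes-4 (-0.83 ± 0.16). The 4 that did not pass were mes-2 (0.01 ± 0.18), met-2 (-0.24 ± 0.14), mes-6 (-0.25 ± 0.16) and set-25 (-0.51 ± 0.21). Only mes-2 had overlapping groups, with 30.1, 27.8 and 28.4 FPKM in young adults, against 23.9 and 33.9 FPKM in embryos. Overlap of the groups was not counted over all genes. The level of met-1 as a percentage of met-2, taken within libraries, was 114 to 128% in young adults, against 235 and 245% in embryos. The germ cell markers summed to 1306 to 1327 FPKM in young adults, against 328.5 and 454 FPKM in embryos, and the oocyte markers to 1467 to 1485 FPKM, against 278 and 432 FPKM. The oocyte marker oma-1 did not follow its sum: it averaged 196.0 FPKM in young adults, against 180.4 FPKM in embryos, with overlapping ranges. The part of the markers in these ratios was not tested. From TPM all members except mes-2 passed as lower, where 6593 of the 13533 genes tested were lower. Without SP117 embryo replicate 1, which leaves a single embryo library, the log2 ratio was -0.45 for mes-6 and -0.75 for set-25.

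In embryos, the strains with an X duplication were set against VC100. In TY1916, hpl-2, hpl-1 and mrg-1 were lower than in VC100, so 3 of the 10 passed, where 8.76% of the 13118 genes tested were lower. The gene hpl-2 had 147.6, 180.4 and 158.9 FPKM in TY1916 embryos, against 438.6, 333.7 and 286.0 FPKM in VC100 embryos (log2 ratio -1.1 ± 0.22, 2.15-fold lower, limma adjusted p = 0.0171). The gene hpl-1 had 30.1, 29.1 and 22.2 FPKM in TY1916, against 48.7, 46.7 and 43.6 FPKM in VC100 (-0.78 ± 0.20, limma adjusted p = 0.0325), and mrg-1 had 192.0, 228.8 and 208.1 FPKM, against 381.6, 350.9 and 307.6 FPKM (-0.72 ± 0.19, limma adjusted p = 0.0319). The groups did not overlap for these 3, nor for mes-6 (-0.75 ± 0.24, limma adjusted p = 0.0515) and mes-2 (-0.73 ± 0.26, limma adjusted p = 0.0700). For all genes such overlap was not counted. The other 5 genes were between -0.37 and -0.02 with overlapping groups, and VC100 replicate 1 was the lowest VC100 library for mes-3, mes-4, met-1, met-2 and set-25. In FPKM it was the highest for hpl-2, mrg-1, hpl-1, mes-6 and mes-2. Its FPKM summed to 1271436, against 949456 and 948190 in the other VC100 libraries. In TPM it was the lowest for hpl-1 (38.3), mrg-1 (300.2) and mes-6 (37.7). From TPM hpl-1 did not pass (-0.66, limma adjusted p = 0.0593), while hpl-2 and mrg-1 did. The calls of hpl-2, hpl-1 and mrg-1 depended on single libraries. No member passed without TY1916 replicate 1, TY1916 replicate 2 or VC100 replicate 2. Without VC100 replicate 3 only hpl-2 passed (limma adjusted p = 0.0356), and without TY1916 replicate 3 hpl-2 (0.0470) and mes-6 (0.0456) did. Without VC100 replicate 1 all 3 passed, and mes-6 and met-1 as well (0.0471 and 0.0211). Of all genes tested in that run, 1749 of 13173 were lower. Without TY1916 replicate 3 these were 696 of 12931, and without VC100 replicate 3 they were 256 of 13264. In the runs where no member passed, 34 of 12957, 107 of 13068 and 165 of 13296 genes were lower, in the order given. The summed germ cell and oocyte markers were also lower in TY1916, and the summed somatic markers were higher. The 8 germ cell markers summed to 164 to 331 FPKM in TY1916 embryos, against 477 to 538 FPKM in VC100 embryos, the 5 oocyte markers to 110.3 to 288 FPKM, against 433 to 568 FPKM, and the 7 somatic markers to 924 to 1307 FPKM, against 225 to 382 FPKM. Some markers did not follow their sum. Among germ cell markers, glh-1 averaged 16.1 FPKM in TY1916, against 16.4 FPKM in VC100, and glh-4 averaged 7.93, against 8.08 FPKM. Among somatic markers, elt-2 averaged 25.4, against 22.0 FPKM, and ges-1 averaged 7.10, against 5.78 FPKM. For each of these markers the ranges overlapped. The part of the marker differences in the 3 calls was not tested.

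**Figure D4:**
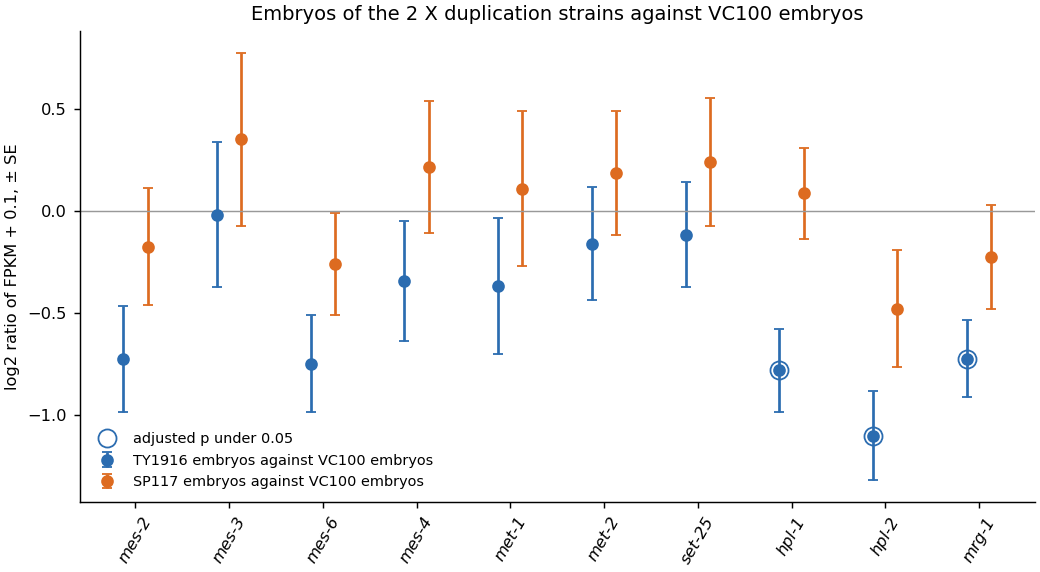
Log2 ratios of FPKM + 0.1 with standard errors for each of the 10 genes in TY1916 embryos (blue) and SP117 embryos (orange), each against VC100 embryos. Circles mark hpl-1, hpl-2 and mrg-1, which passed the test in TY1916, and no gene passed in SP117.

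SP117 embryos were compared with the same VC100 libraries, so the 2 comparisons share their reference. None of the 10 passed in limma (adjusted p between 0.809 and 0.936), none had an unadjusted p under 0.05, and log2 ratios were between -0.48 (hpl-2) and 0.35 (mes-3). Of the 12307 genes tested, 0.0650% passed and 632 had an unadjusted p under 0.05, and the ranges of the groups overlapped for every member. The ratio of hpl-1 was 0.09 ± 0.22. Without VC100 replicate 1 that of mes-3 was -0.06.

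Because hpl-1 lies on X, its surroundings were read in each strain. Whether hpl-1 lies inside, at an edge of or outside mnDp10 and yDp11 was not determined here. The part of copy number in the ratios below was therefore not tested. In SP117 L2-L3 larvae it had 14.8, 25.9, 14.6 and 23.8 FPKM, against 10.5 FPKM in both BC4289 larval libraries, so all 4 values lay above the BC4289 values. The log2 ratio was 0.85 ± 0.29, with an unadjusted p of 0.0204 in limma and an adjusted p of 0.572, so it did not pass. The 25 tested genes on either side of hpl-1 had medians of 0.52 and 0.54, the other 1961 X genes a median of 0.07, and 94.4% of them a lower ratio than hpl-1. In young adults the SP117 against BC4289 ratio of hpl-1 was 0.14 ± 0.20 and the medians on either side were 0.04 and 0.07. In TY1916 embryos against VC100 embryos, the 25 genes to the left of hpl-1 had a median of 1.51 and the 25 to the right one of 0.29, the median of the other 1998 X genes was 0.62, and 7.26% of them had a lower ratio than hpl-1 (-0.78). In SP117 embryos against the same VC100 embryos, the medians were 0.54 to the left and 0.09 to the right, the other 1864 X genes had a median of 0.19, and 42.5% of them had a lower ratio than hpl-1 (0.09). The neighbouring gene K08H2.7, which begins 218 bases away, did not exceed 5.81 FPKM in any library.

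**Figure D5:**
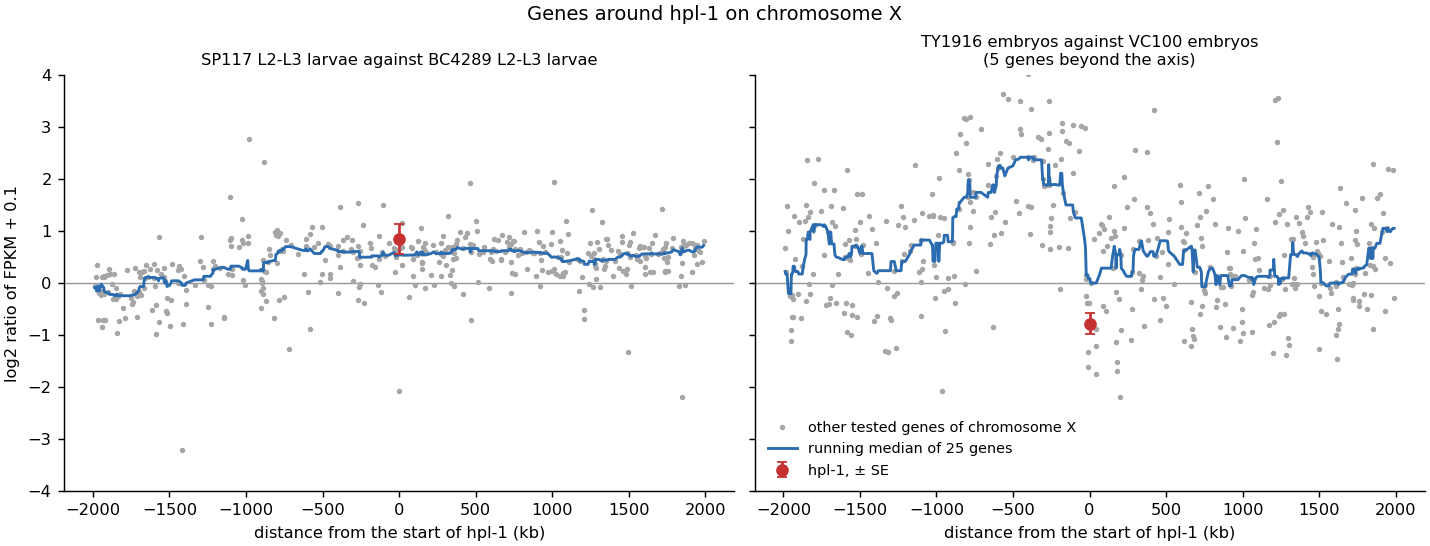
Log2 ratio of FPKM + 0.1 for genes of the X chromosome by distance from the start of hpl-1 (kb), in SP117 against BC4289 L2-L3 larvae (left) and TY1916 against VC100 embryos (right). Grey points are genes, the line is a running median of 25 genes, and the red point is hpl-1 with its standard error, at 0.85 on the left, near the line, and at -0.78 on the right, below it.

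SP117 and BC4289 were also compared with each other at the same later stages. None of the 10 passed in limma for SP117 against BC4289 L2-L3 larvae, where 0.0389% of 12870 genes passed and 965 had an unadjusted p under 0.05, and hpl-1 was the 1 member with an unadjusted p under 0.05. The other 9 log2 ratios were between -0.26 (hpl-2) and 0.20 (met-1). Every SP117 larval library lay above both BC4289 libraries for hpl-1 and mes-3 and below both for hpl-2, and the other members overlapped. None passed for SP117 against BC4289 young adults, where 0.109% of 12827 genes passed and 1012 had an unadjusted p under 0.05. In that comparison all 10 ratios were above 0, between 0.07 (mrg-1) and 0.27 (set-25), with adjusted p in limma of 0.659 to 0.840 and none with an unadjusted p under 0.05, and the median of all genes was 0.03. Every SP117 young adult library lay above every BC4289 one for mes-2, mes-6, met-1 and hpl-2, and the other members overlapped. At neither stage was overlap counted over all genes.

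In OP37, the levels were near those of larvae. None of the 10 passed against the 6 L2-L3 libraries of SP117 and BC4289 in limma, where 10.7% of 12895 genes passed and 3451 had an unadjusted p under 0.05. Unadjusted p was under 0.05 for 4 members: set-25 (log2 ratio 1.14 ± 0.42), met-1 (0.73 ± 0.27), mes-3 (0.55 ± 0.21) and hpl-1 (-0.54 ± 0.24), with adjusted p in limma of 0.116, 0.116, 0.127 and 0.184. The gene set-25 had 14.2, 12.9 and 3.55 FPKM in OP37, against 3.27 to 5.19 FPKM in the 6 larval libraries, so that 2 of 3 OP37 libraries lay above all larvae and replicate 3 within them. Replicate 3 was the lowest OP37 library for every member except hpl-1, and its germ cell markers summed to 70.5 FPKM, against 168 and 186 FPKM in the other OP37 libraries. Without it 4 members passed, among them set-25 (1.77, limma adjusted p = 0.00215), met-1 (1.04, 0.0130) and mes-3 (0.71, 0.0336). Of the 12902 genes tested without it, 2658 passed. From TPM 5 members passed, where 4411 of the 12611 genes tested passed. The median of all genes was then 0.63 in place of -0.01.

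Across the 23 libraries the profiles of 9 members were alike and that of hpl-1 was not. Pearson correlations of log2(FPKM + 0.1) were between 0.725 and 0.978 for the 36 pairs without hpl-1, and between 0.189 and 0.529 for the 9 pairs with it. These values describe libraries that share stages, strains and depth. The closest pairs were mes-3 with met-1 (0.978), mes-2 with mes-6 (0.976), hpl-2 with mrg-1 (0.968) and mes-4 with mrg-1 (0.966), while set-25 was closest to met-1 (0.867) and hpl-1 to hpl-2 (0.529). Of 14243 other genes with a mean of at least 1 FPKM, the 5 whose profiles were most like the mean profile of the members were spt-16 (0.995), a subunit of a histone chaperone, jhdm-1 (0.994), which belongs to the list of erasers above, rtfo-1 (0.993), a transcription elongation factor gene, isw-1 (0.993), a chromatin remodeller, and Y4C6B.1 (0.992). For spt-16 the mean was 154 FPKM in SP117 embryos, 39.3 in SP117 L2-L3 larvae and 93.8 in SP117 young adults.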

How the data were processed

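mRNA-seq libraries were prepared from poly(A) RNA with dUTP strand marking. Per the study's methods, reads were aligned to WS220 with HISAT2 2.2.1 and FPKM was computed with Cufflinks 2.2.1 by the authors. TPM values were deposited beside FPKM and equal FPKM divided by its sum over the library. Read counts were not used. The 18 samples of DNA-seq were not analysed here. Of 20390 listed genes, 51 with a FAIL status and 12 mitochondrial genes were left out, and 19880 identifiers (97.5%) had a RefSeq name.

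Genes with a mean of at least 1 FPKM over the libraries compared were tested on log2(FPKM + 0.1) with limma 3.58.1 (R 4.3.3, lmFit, eBayes with a trend), Benjamini-Hochberg adjustment and a threshold of 0.05. The pseudocount understates ratios of low genes. Every member passed the filter in every comparison. The fit was tested on simulated data. The labels do not say that libraries came from separate cultures, so p measures the spread between libraries, which may be technical. Alternatives were a pseudocount of 1, no filter, TPM, quantile normalization, all 23 libraries in 1 fit, a replicate block, each library left out and VC100 as the reference of OP37. Members and lists were chosen with earlier results of these data known. Named were all members, the 2 largest and 2 smallest ratios among listed genes that passed, genes overlapping a member (those within 1000 bases as a count, with the one beside hpl-1 named), each member's closest member and the 5 most alike genes. Of 66 list symbols, 64 matched. Promoter motifs were not analysed here.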

Additional observations from a re-analysis of the deposited data

Results flagged for a closer look

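Only 1 group, SP117 L2-L3 larvae, has enough libraries for a test of a single library far from the rest, and 2 of the 10 genes met it. The lowest of the 4 libraries for mes-2 was replicate 3, at 7.54 FPKM where the others were 7.92 to 7.96, a gap that is small in FPKM. The lowest for hpl-2 was replicate 2, the shallowest library, at 40.5 FPKM where the others were 55.8 to 56.8. Chance gives such a gap in about 1 of 20 groups.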

How the results depend on the processing

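The number of members that passed stayed at 10 of 10 for SP117 young adults against larvae under every alternative run, and at 0 under every alternative run for SP117 against VC100 embryos, SP117 against BC4289 larvae, SP117 against BC4289 young adults and the difference in the stage step. It was 9 or 10 for BC4289 young adults against larvae (8 to 10 with a library left out) and 9 or 10 for SP117 larvae against embryos, and 6 to 9 for SP117 young adults against embryos. For TY1916 against VC100 embryos, 3 became 1 under quantile normalization, 2 with TPM, where hpl-1 was -0.66 (limma adjusted p = 0.0593), 5 with all 23 libraries in 1 fit, and 0 to 5 with a library left out. The members that passed were lower in TY1916. Of all genes tested, 2840 of 13118 passed under quantile normalization, 1494 of them as lower. With TPM 3675 of 13135 passed, 874 of them as lower. In the fit of all libraries 4906 of 14253 passed, 1765 of them as lower. For OP37 against larvae, 0 became 5 with TPM, 1 with all 23 libraries in 1 fit, 9 with VC100 embryos as the reference, and 0 to 4 with a library left out. There, 4411 of 12611 genes passed with TPM, 2083 of 14253 in the fit of all libraries and 8919 of 13469 against VC100 embryos.

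In no comparison with 3 shared replicate numbers did every same-numbered pair of libraries correlate above 0.1 (-0.26 to 0.23 over all comparisons, for example -0.20, 0.09 and -0.20 between TY1916 and VC100 embryos), so the numbers were not taken as pairs. With the replicate block, the TY1916 count was 0 and that of BC4289 young adults 9, and the other counts were those given.

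Over the 10 members and 10 comparisons, 15 of 100 log2 ratios changed sign with TPM, 4 with quantile normalization, 3 with the replicate block and none with a pseudocount of 1, without a filter or with all libraries in 1 fit. None of those that changed, under these or with a library left out, had passed. Among ratios given a value of their own, those that changed with TPM were mes-2 in SP117 young adults against embryos (-0.24), mes-3 (0.10) and set-25 (0.0014) in TY1916 against VC100, and hpl-1 in OP37 (0.0926). With quantile normalization they were mes-6 (0.0061) and met-2 (0.0003) in SP117 young adults against embryos and mes-3 in TY1916 (0.10). With VC100 embryos as the reference of OP37 they were mes-3 (-1.29), met-1 (-2.05) and set-25 (-0.47). With a library left out, mes-2 in SP117 young adults against embryos was -0.24 to 0.26, mes-3 in SP117 against VC100 embryos -0.0591 to 0.60, and in TY1916 mes-3 was -0.43 to 0.23, met-2 -0.38 to 0.001 and set-25 -0.28 to 0.0323.

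Among all genes, 49.6% of the BC4289 stage calls were higher from FPKM and 65.8% from TPM, 41.7 and 29.4% for SP117 larvae against embryos, and 34.5 and 91.5% for OP37. In TY1916, 68.6% were higher from FPKM and 47.4% with quantile normalization. All-gene calls in TY1916 were 3660, 917 with the block and 319 to 5326 with a library left out, and in OP37 they were 1385, 4411 with TPM, 2083 with all libraries in 1 fit and 383 to 2658 with a library left out. Comparisons of SP117 with another strain at 1 stage gave 14 calls or fewer and moved between 0 and 378.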
